A study of Homo sapiens with 8 samples.

Results

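Mitochondrial ribosomal protein genes are nuclear genes for the protein subunits of the ribosome that works inside mitochondria. They were taken as every GENCODE protein-coding gene on chromosomes 1 to 22 and X whose symbol is MRPL or MRPS followed by a number, which gave 78 members of 19970 protein-coding genes. Of the members, 49 have MRPL symbols (large subunit) and 29 have MRPS symbols (small subunit). MRPS36 was kept by its symbol, although the protein is now placed outside the ribosome. The mitochondrial ribosome makes a handful of proteins of the respiratory chain from mitochondrial DNA, whereas all of its own proteins are encoded in the nucleus, made in the cytosol and imported. Some subunits descend from bacterial ribosomal proteins, and others are found only in mitochondria. The promoters of such housekeeping genes often lie in CpG islands and can hold binding sequences for Sp1, ETS-family factors such as GABP, YY1 and NRF1.

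The data are peak lists from chromatin immunoprecipitation sequencing (ChIP-seq) in U-2 OS, a human osteosarcoma cell line. Cells were fixed for 6 min in 1% formaldehyde. Sp1, a zinc finger activator that reads GC-rich DNA, was pulled down with antibody MA5-32497 (antibody 1) or PA5-29165 (antibody 2), with 1 library each. Normal rabbit IgG (ab46540/1) gave 1 control library. The labels give these libraries the genotype of an endogenous V5-Halo-SP1 knock-in, while their titles call the line parental. The study uses that word for the knock-in itself, from which its inducible lines were made. Its methods name a single selected knock-in clone for all later work. CTCF, a zinc finger protein known for its role in chromatin loops, was pulled down with ab128873 in 2 replicates from clone C32, an endogenous FLAG-Halo-CTCF knock-in. C32 is a single clone, and the series description instead names wild-type cells. The 2 targets come from separate lines and libraries, so target and experiment cannot be told apart. The lists carry no read counts, so depth is unknown.

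A gene was called when the summit of a peak, its highest point, lay within 1 kb of any of its annotated transcript starts. The strength of a call is the fold enrichment, a linear ratio over the control that the authors' peak caller gave to the peak, and where a gene had several peaks the strongest was used. The range given after a share is its 95% Wilson interval and reflects the number of genes counted, nothing else. No p-value was computed, because each Sp1 antibody and IgG has 1 library and genes are not replicates.

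The DNA under some of the strongest Sp1 summits is shown first. The sequences below are the hg38 bases within 50 bp of a summit, on the strand of the gene, cut where needed so that at most 30 bases of annotated untranslated exon remain. Capitals mark the ETS core (CCGGAA, or TTCCGG when read from the other strand), the GC box that Sp1 reads (GGGCGG, or CCGCCC from the other strand) and the word TCGCGAGA. The first 3 are the members with the highest mean log2 fold of both Sp1 antibodies, shown at the antibody 2 summit.
MRPS18C, chr4:83455961-83456012, + strand: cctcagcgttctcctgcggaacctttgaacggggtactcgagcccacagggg
MRPL44, chr2:223957363-223957463, + strand: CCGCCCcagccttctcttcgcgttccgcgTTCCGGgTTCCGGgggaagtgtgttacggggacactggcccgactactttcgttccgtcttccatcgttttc
MRPL30, chr2:99181100-99181200, + strand: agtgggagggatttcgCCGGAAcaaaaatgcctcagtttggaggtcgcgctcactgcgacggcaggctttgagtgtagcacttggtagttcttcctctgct

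MRPL44 holds 2 ETS cores and 1 GC box in this window, MRPL30 holds 1 ETS core and no GC box, and the shortened MRPS18C window holds neither. The next 4 were chosen after their values were seen, from the 12 members where antibody 2 was over 4 times antibody 1. They all hold an ETS core, whereas MRPL21 and MRPL13, which have the largest ratios and are not shown, hold none within 50 bp of the antibody 2 summit.
MRPL3, chr3:131502967-131503067, - strand: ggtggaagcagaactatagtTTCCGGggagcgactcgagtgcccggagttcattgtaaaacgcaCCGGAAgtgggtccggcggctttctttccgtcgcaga
MRPL16, chr11:59810784-59810884, - strand: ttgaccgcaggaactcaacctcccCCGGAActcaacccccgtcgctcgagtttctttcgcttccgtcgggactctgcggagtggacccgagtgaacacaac
MRPL48, chr11:73787798-73787898, + strand: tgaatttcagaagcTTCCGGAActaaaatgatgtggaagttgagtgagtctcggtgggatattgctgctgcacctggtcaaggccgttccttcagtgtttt
MRPS31, chr13:40771161-40771256, - strand: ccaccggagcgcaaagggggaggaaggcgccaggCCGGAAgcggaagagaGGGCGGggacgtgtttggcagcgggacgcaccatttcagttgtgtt

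In MRPL48 the 8 capitals read the same core on both strands and were counted as 1. The next 3 were also chosen after their values were seen, for strong antibody 1 peaks, and are centred on the antibody 1 summit.
MRPL57, chr13:21176562-21176662, + strand: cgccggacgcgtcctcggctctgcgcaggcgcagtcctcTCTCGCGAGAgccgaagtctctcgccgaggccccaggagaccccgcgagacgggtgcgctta
MRPS7, chr17:75261580-75261676, + strand: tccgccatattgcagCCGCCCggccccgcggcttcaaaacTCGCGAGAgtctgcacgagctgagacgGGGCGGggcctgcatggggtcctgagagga
MRPS14, chr1:175023399-175023499, - strand: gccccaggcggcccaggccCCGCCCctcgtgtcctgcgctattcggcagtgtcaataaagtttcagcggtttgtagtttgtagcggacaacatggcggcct

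Sp1 peaks were frequent at the starts of the family. Antibody 1 had a summit at 60 of 78 members (76.9%, 95% interval 66.4 to 84.9), against 37.5% of all protein-coding genes. Antibody 2 had one at 45 members (57.7%, 46.6 to 68.0), against 24.2%. Both antibodies marked 41 members (52.6%, 41.6 to 63.3), against 21.2%. For all 3 counts the interval of the members lay above the share of all genes. IgG had a summit at 0 of 78 members and at 0.025% of all genes. Taking 3 counts of 78 as the upper limit, which is not a Wilson interval, allows a member share of up to 3.85%.

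Many of these promoters are CpG-rich, and that was measured beside the counts. With CpG-rich defined as at least 55% GC and an observed to expected CpG ratio of at least 0.6 from 250 bases before to 50 bases after the main (Ensembl canonical) start, 63 of 78 members qualified (80.8%), as did 12392 of all genes (62.1%). Among all genes with such promoters the background rose to 50.5% for antibody 1, 32.1% for antibody 2 and 28.6% for both. The members with such promoters had 50 of 63 called by antibody 1 (79.4%, 67.8 to 87.5), 38 by antibody 2 (60.3%, 48.0 to 71.5) and 35 by both (55.6%, 43.3 to 67.2). These intervals also lay above the CpG-rich background. CpG content moved with the Sp1 calls over all genes, and its part in the counts of the members was not tested further.

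CTCF peaks had intervals that included the share of all genes. Replicate 1 had a summit at 27 members (34.6%, 25.0 to 45.7), against 32.5% of all genes. Replicate 2 had one at 23 members (29.5%, 20.5 to 40.4), against 24.9%. Both replicates marked 21 members (26.9%, 18.3 to 37.7), against 24.3%. The CpG-rich background was higher, at 40.3%, 30.5% and 29.7%. With all members, CpG-rich or not, set against it, the sign of the difference thus changes with the background chosen. With only the Ensembl canonical start of each gene, replicate 1 marked 34.6% of members against 22.6% of all genes, and replicate 2 marked 25.6% against 16.2%. The difference for CTCF thus depends on the starts and the background used.

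**Figure D1:**
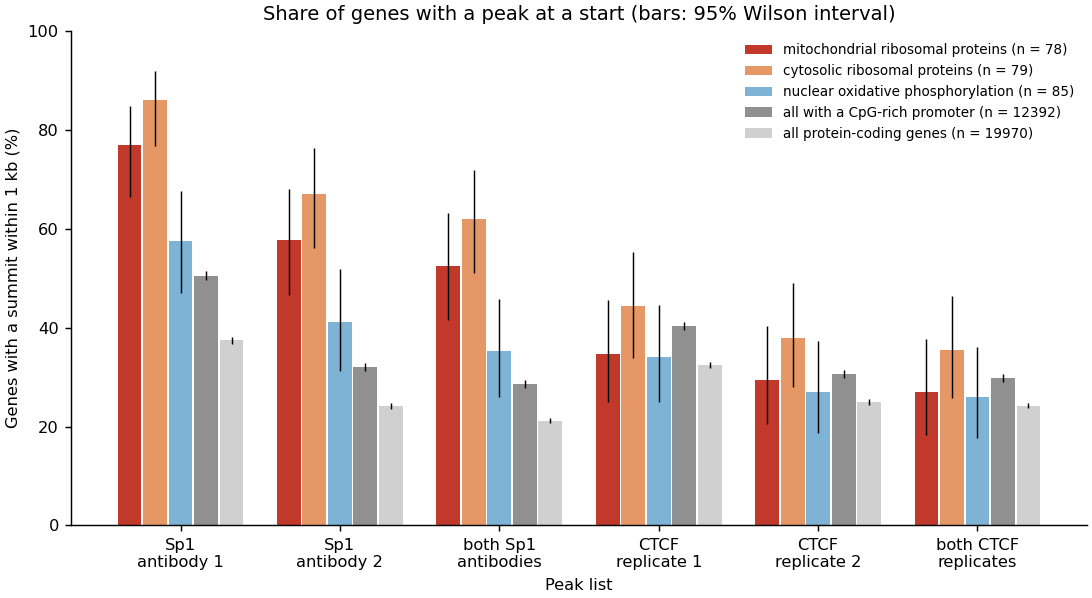
Share of genes called, by a summit no farther than 1 kb from a start (vertical axis, percent) in each peak list (horizontal axis), for the 78 members, 79 cytosolic ribosomal protein genes, 85 nuclear oxidative phosphorylation genes, 12392 genes with a CpG-rich promoter and all 19970 protein-coding genes; bars are shares and lines are 95% Wilson intervals. The members stand above all genes for Sp1 (60 of 78 for antibody 1) and close to them for CTCF (21 of 78 for both replicates).

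Cytosolic ribosomal protein genes and nuclear genes of oxidative phosphorylation, the families most like this one in function, were measured the same way. Of 79 cytosolic ribosomal protein genes, 68 were called by antibody 1 (86.1%, 76.8 to 92.0), 53 by antibody 2 (67.1%, 56.1 to 76.4) and 28 by both CTCF replicates (35.4%, 25.8 to 46.4). Of 85 oxidative phosphorylation genes, which include tissue-specific isoforms, 49 were called by antibody 1 (57.6%, 47.0 to 67.6), 35 by antibody 2 (41.2%, 31.3 to 51.8) and 22 by both CTCF replicates (25.9%, 17.8 to 36.1). The intervals of the mitochondrial family overlapped those of both other families in each of these lists. The families are not fully separate. FAU, a cytosolic ribosomal protein gene, has a start 144 bp from that of MRPL49 and the same Sp1 folds, 15.5 and 7.91.

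The large and small subunits had overlapping intervals in each list. Antibody 1 marked 40 of 49 MRPL genes (81.6%, 68.6 to 90.0) and 20 of 29 MRPS genes (69.0%, 50.8 to 82.7). Antibody 2 marked 27 MRPL genes (55.1%, 41.3 to 68.1) and 18 MRPS genes (62.1%). Both CTCF replicates marked 13 MRPL genes (26.5%) and 8 MRPS genes (27.6%). Among the 47 members with a bacterial homologue antibody 1 marked 36 (76.6%), and among the 30 mitochondria-specific members it marked 23 (76.7%). Both CTCF replicates marked 9 of the former (19.1%, 10.4 to 32.5) and 12 of the latter (40.0%, 24.6 to 57.7), and these intervals overlap. MRPS36 is in neither class.

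All 4 lists had a summit at 10 of 78 members (12.8%), against 6.71% of all genes. They were MRPL1, MRPL17, MRPL34, MRPL39, MRPL51, MRPL54, MRPL55, MRPL58, MRPS12 and MRPS27. No list had a summit at 10 other members (12.8%), against 43.8% of all genes: MRPL19, MRPL20, MRPL22, MRPL35, MRPL47, MRPL50, MRPS6, MRPS10, MRPS18A and MRPS21. They were 9 of the 47 members with a bacterial homologue (19.1%, 10.4 to 32.5) and 1 of the 30 mitochondria-specific ones (3.33%, 0.591 to 16.7), and these intervals overlap. The lists do not say whether these promoters lack the proteins, only that no peak passed the authors' threshold.

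**Figure D2:**
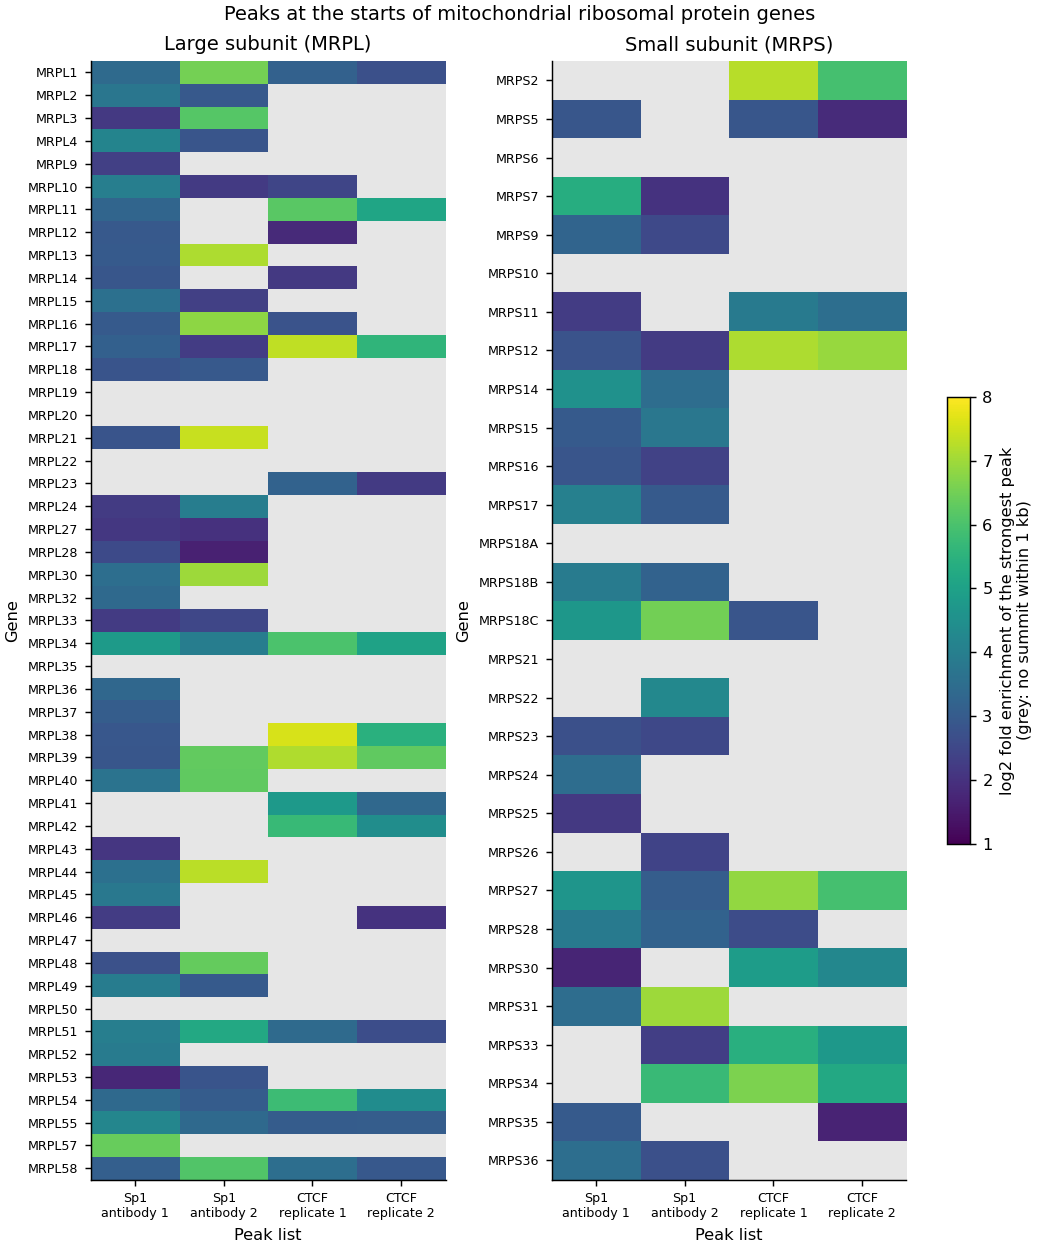
Log2 fold enrichment (colour, from 1 to 8) of the strongest peak within 1 kb of a start, for each of the 49 MRPL genes (left, rows) and 29 MRPS genes (right, rows) in the 4 peak lists (columns); grey means no summit. The brightest antibody 2 cells (MRPL21, MRPL44, MRPL13) sit beside dark antibody 1 cells, and 10 rows are grey throughout.

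The 2 Sp1 antibodies ranked the members differently. Across the 41 members with both, Spearman's rho of the fold enrichment was 0.0897, and across all 4233 genes with both it was 0.322. These are descriptions across genes, which share the 2 libraries. The CTCF replicates, by contrast, gave a rho of 0.939 across 21 members and 0.952 across 4843 genes. With 1 library per antibody, antibody and library cannot be told apart.

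The difference was largest at a set of members where antibody 2 was very strong. Its fold was at least 30 at 15 of the 45 members it marked (33.3%, 21.4 to 47.9), against 9.04% of all genes it marked. No member lay between 19.3 (MRPS22) and 37.6 (MRPL51), so the family fell into a strong and a weak set. Cytosolic ribosomal protein genes had 4 of 53 at this strength (7.55%, 2.97 to 17.9) and oxidative phosphorylation genes had 4 of 35 (11.4%, 4.54 to 26.0). At this cut the interval of the mitochondrial family lay above that of the cytosolic one and overlapped that of oxidative phosphorylation. The cut lies inside the gap of the members, while the other families have genes just under it. Among these are RPS20 (29.6) and RPL4 (20.1) of the cytosolic family and NDUFA12 (23.8) of oxidative phosphorylation. Other cuts were not run, so the separation from the cytosolic family holds for this cut only.

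MRPL21, a subunit shared with bacterial ribosomes, had a fold of 170 with antibody 2 and 7.09 with antibody 1. This was the largest ratio in the family, 24.0. IGHMBP2, a helicase gene on the opposite strand, has a start 31 bp from the main start of MRPL21, so the peak cannot be given to either gene alone. MRPL13, on chromosome 8, had 141 with antibody 2 and 7.95 with antibody 1, a ratio of 17.7. MRPL3, whose bacterial counterpart lies near the peptidyl transferase centre, had 70.6 and 4.45, a ratio of 15.9.

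MRPL44, which has an RNase III-like fold, had 155 with antibody 2 and 12.1 with antibody 1. MRPL30 had 126 and 11.6, and MRPS31 had 126 and 11.3. MRPL44 and MRPS31 have no opposite-strand partner within 1 kb, while a start of MITD1 lies 126 bp from that of MRPL30. In all 3 the antibody 2 fold was over 4 times that of antibody 1. MRPS18C, 1 of 3 human relatives of bacterial S18, was the only one of the highest 6 by both antibodies that stayed within 4 times, at 91.8 and 26.3.

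In all, antibody 2 was over 4 times antibody 1 at 12 of the 41 members with both (29.3%, 17.6 to 44.5), against 7.11% of all such genes. The 12 were MRPL1, MRPL3, MRPL13, MRPL16, MRPL21, MRPL30, MRPL39, MRPL40, MRPL44, MRPL48, MRPL58 and MRPS31. MRPL genes made up 11 of the 12, or 11 of 27 MRPL genes with both antibodies (40.7%, 24.5 to 59.3), and MRPS genes gave 1 of 14 (7.14%, 1.27 to 31.5). These 2 intervals overlap. Among the 12, antibody 1 folds ran from 4.45 (MRPL3) to 12.6 (MRPL40), and antibody 2 folds from 68.4 (MRPL58) to 170 (MRPL21). The ranges of the 2 antibodies did not overlap, which the choice of these members fixes.

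The reverse was seen at 1 of 41 members (2.44%, 0.432 to 12.6), against 3.85% of all such genes. This was MRPS7, an RNA-binding subunit with a bacterial counterpart, with 40.9 for antibody 1 and 4.08 for antibody 2. The next smallest ratios of antibody 2 to antibody 1 were those of MRPL10, a stalk protein (16.1 and 4.56, ratio 0.284), and MRPS27, a pentatricopeptide repeat protein (25.1 and 8.34, ratio 0.332). MRPL57 had the highest antibody 1 fold of the family, 82.9, and no antibody 2 summit. Its summit lay 46 bp upstream of the start, and a start of SKA3 lies 106 bp from it on the opposite strand.

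Some members were marked by only 1 antibody. Antibody 1 alone marked 19 members (24.4%, 16.2 to 34.9), against 16.3% of all genes. Its list is also the longer, with 8706 peaks against 5973 for antibody 2. Antibody 2 alone marked 4 members (5.13%, 2.01 to 12.5), against 2.96%, and all 4 are MRPS genes: MRPS34 with a fold of 54.0, MRPS22 with 19.3, MRPS26 with 5.26 and MRPS33 with 4.91. All 4 encode mitochondria-specific subunits. The summit at MRPS26 lay in a coding exon of the neighbouring gene GNRH2, 337 bp upstream of the start.

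**Figure D3:**
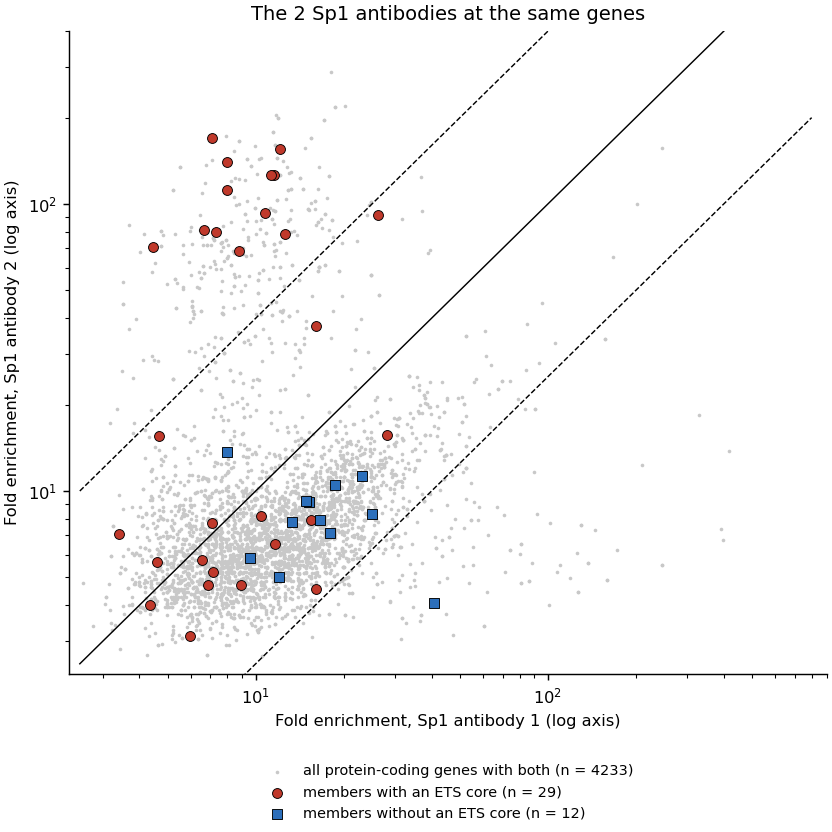
Fold enrichment with Sp1 antibody 1 (horizontal, log axis) against antibody 2 (vertical, log axis) for 4233 protein-coding genes with both (grey) and the 41 members with both, split by an ETS core in the promoter window (29 red circles with, 12 blue squares without); the solid line is equality and the dashed lines are 4 times apart. The 12 members above the upper dashed line all hold an ETS core.

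Sequence was then compared, since the choice of members did not use it. The ETS core CCGGAA was found, on either strand, in the 300-base promoter windows of 47 of 78 members (60.3%, 49.2 to 70.4), against 22.8% of all genes and 29.9% of those with CpG-rich promoters. At least 2 separate cores were found in 21 members (26.9%), against 5.78% of all genes. Cytosolic ribosomal protein genes held the core in 57.0% and oxidative phosphorylation genes in 42.4%. ETS-family factors, among them GABP, bind DNA around this core. A match is a description of letters and not a measured site.

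The GC box GGGCGG was no more common than elsewhere. It was in the windows of 47 members (60.3%, 49.2 to 70.4), against 61.3% of all genes and 83.1% of those with CpG-rich promoters. Within 50 bp of the antibody 1 summit it was found at 30 of 60 members (50.0%, 37.7 to 62.3), against 56.7% of all genes with such a summit. Within 50 bp of the antibody 2 summit it was at 18 of 45 (40.0%, 27.0 to 54.5), against 44.4%. The median GC content of the windows was 59.7% in the members and 63.7% in all genes, which bears on how often a GC-only word is met.

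Calls of antibody 2 differed more with the ETS core, among the members, than calls of antibody 1. Among the 47 members with the core in the promoter window, antibody 2 marked 33 (70.2%) with a median fold of 15.6. Among the 31 without it, antibody 2 marked 12 (38.7%) with a median fold of 8.15. Antibody 1 marked 37 of the 47 (78.7%, median fold 7.74) and 23 of the 31 (74.2%, median fold 12.1). Over all genes antibody 2 marked 43.3% of those with the core and 18.5% of those without. Antibody 1 also marked more genes with the core over all genes, at 56.2% against 31.95%, so the members differ from all genes in that respect, without a test.

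All 12 members where antibody 2 was over 4 times antibody 1 held the core in the promoter window, 8 of them at least 2 separate cores, as did 17 of the other 29 members with both (58.6%). Over all genes the shares were 74.4% of 301 and 36.9% of 3932. Within 50 bp of the antibody 2 summit, the core was at 9 of the 12 (75.0%, 46.8 to 91.1) and 7 of the 29 (24.1%, 12.2 to 42.1), and over all genes at 62.5% and 20.0%. MRPL1, MRPL13 and MRPL21 were the 3 without a core in that window, and within 100 bp only MRPL13 lacked it. The members follow the pattern of all genes here, and the ratio that sorted them uses the same summits, so these shares are a description. What the antibodies recover at these promoters was not tested.

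TCGCGAGA, most of a palindrome found in some housekeeping promoters, was in the promoter windows of 2 members (2.56%), against 1.72% of all genes and 19.0% of cytosolic ribosomal protein genes. These 2 were MRPL57 and MRPS14, which had antibody 1 folds of 82.9 and 23.1. The word was printed above at the antibody 1 summits of MRPL57 and MRPS7, which have the highest antibody 1 folds of the family. The promoter window of MRPS7 does not hold it, and neither does the printed summit window of MRPS14. Within 50 bp of the antibody 1 summit it was at 3 of 60 members (5.00%, 1.71 to 13.7), against 3.68% of all genes with such a summit. Over all genes it lay within 50 bp of the antibody 1 summit at 40.5% of the 163 genes where antibody 1 was over 4 times antibody 2, and at 0.332% of the 301 with the reverse.

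The word AAGATGGC, which resembles the YY1 recognition sequence, stood out in another way. It was in the windows of 22 members (28.2%, 19.4 to 39.0), against 4.06% of all genes, 15.2% of cytosolic ribosomal protein genes and 17.6% of oxidative phosphorylation genes. In 18 members it lay on the strand of the gene, and in 14 its ATG is an annotated start codon. The first 3 of these by symbol, with a full stretch inside the window, are shown with the word in capitals.
MRPL35, chr2:86199476-86199505, + strand: taggcgaaggtgAAGATGGCtgcctctgcc
MRPL38, chr17:75904861-75904890, - strand: caggccggagggAAGATGGCggcgccctgg
MRPL45, chr17:38297169-38297198, + strand: ctttgcgggaacAAGATGGCagcccccata

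Members with this word had fewer Sp1 calls. Antibody 2 marked 6 of the 22 (27.3%) and 39 of the 56 without it (69.6%), and antibody 1 marked 14 (63.6%) and 46 (82.1%). No list marked 7 of the 22 (31.8%) and 3 of the 56 (5.36%). All genes with the word went the other way, with antibody 2 at 40.6% of 810 against 23.5% of 19160 without it. Over all genes antibody 1 marked 65.7% with the word and 36.3% without it, and no list marked 23.6% and 44.7%. Members with the word were thus not above all genes with the word for either antibody. Both CTCF replicates marked 27.3% of the members with the word and 26.8% of those without. The split was made after the Sp1 values were known and has no test.

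The other words were near the background. The NRF1-like word GCGCATGCG was in 4 members (5.13%, 2.01 to 12.5), against 2.70% of all genes and 11.8% of oxidative phosphorylation genes. CCAAT was in 22 members (28.2%, 19.4 to 39.0), against 36.0%. The E-box CACGTG was in 7 (8.97%, 4.42 to 17.4), against 8.75%. The CTCF core, searched by its consensus in degenerate letters, was in 0 members and in 0.471% of all genes.

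**Figure D4:**
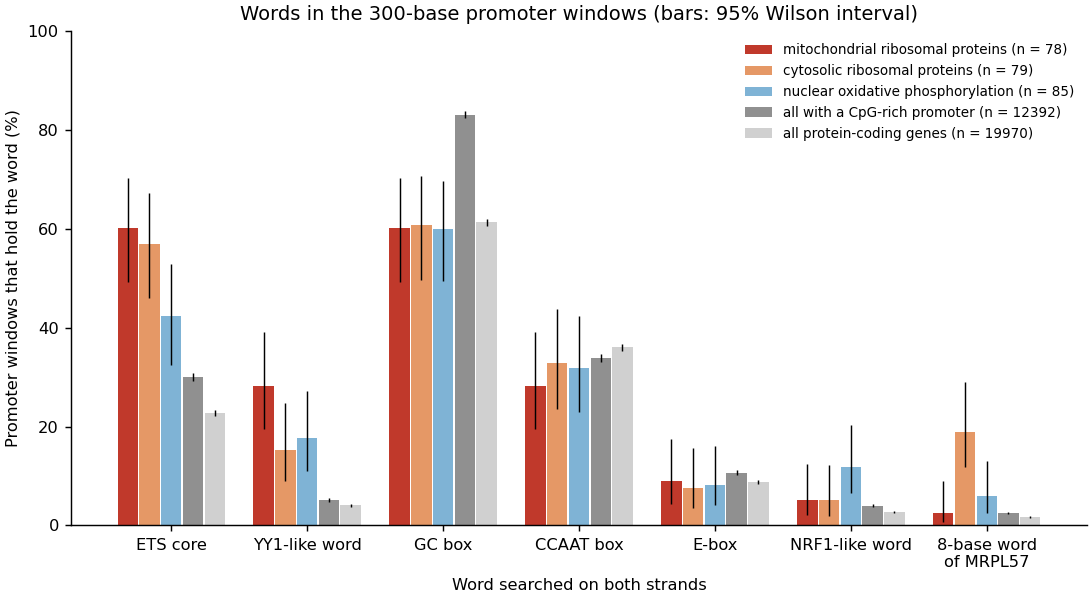
Share of 300-base promoter windows that hold each word on either strand (vertical axis, percent), for the 78 members, 79 cytosolic ribosomal protein genes, 85 oxidative phosphorylation genes, 12392 genes with a CpG-rich promoter and all 19970 genes; bars are shares and lines are 95% Wilson intervals, and the last word is TCGCGAGA. The ETS core (60.3%) and the YY1-like word (28.2%) are above all genes in the members, and the GC box (60.3%) is not.

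Sp1 summits sat close to the starts. The median distance from the nearest start was 37 bp upstream for antibody 1 and 45 bp upstream for antibody 2, against 61 and 58 bp over all genes called. Upstream lay 46 of 60 and 40 of 45 summits, against 5991 of 7481 and 3622 of 4825 over all genes called. Lying upstream is thus common to Sp1 summits of all genes. Within 100 bp of a start were 49 of 60 antibody 1 summits (81.7%) and 35 of 45 antibody 2 summits (77.8%), against 57.3% and 55.4% over all genes called. The 2 antibodies had their summits a median of 39 bp apart at the 41 members, and within 100 bp of each other at 31 of them (75.6%). Over all genes with both, these were 61 bp and 64.5%. CTCF summits were farther out, within 100 bp of a start at 11 of 27 members (40.7%) in replicate 1 and 6 of 23 (26.1%) in replicate 2, against 30.7% and 29.7% over all genes called. The CTCF replicates had their summits a median of 7 bp apart, against 8 bp over all genes with both.

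Few calls depended on the 1 kb limit for Sp1. Taking the nearest summit of each member, the most distant antibody 1 summit inside it was that of MRPS18B, at -520 bp with a fold of 15.2, and the nearest outside was at MRPL22, at -2829 bp with 7.57. For antibody 2 these were MRPL34 (687 bp, fold 15.6) and MRPL35 (-3726 bp, 8.17). For CTCF replicate 1 the limit ran between MRPL14 (-955 bp, fold 4.44) and MRPL46 (-1001 bp, 7.16). For replicate 2 it ran between MRPL46 (-976 bp, 4.11) and MRPS22 (1598 bp, 39.1). The MRPL34 and MRPS18B summits are nearer to starts of ABHD8 and PPP1R10. A further 14 members in replicate 1 and 11 in replicate 2 had their nearest summit between 1 and 5 kb away, against 1 member for each Sp1 antibody.

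**Figure D5:**
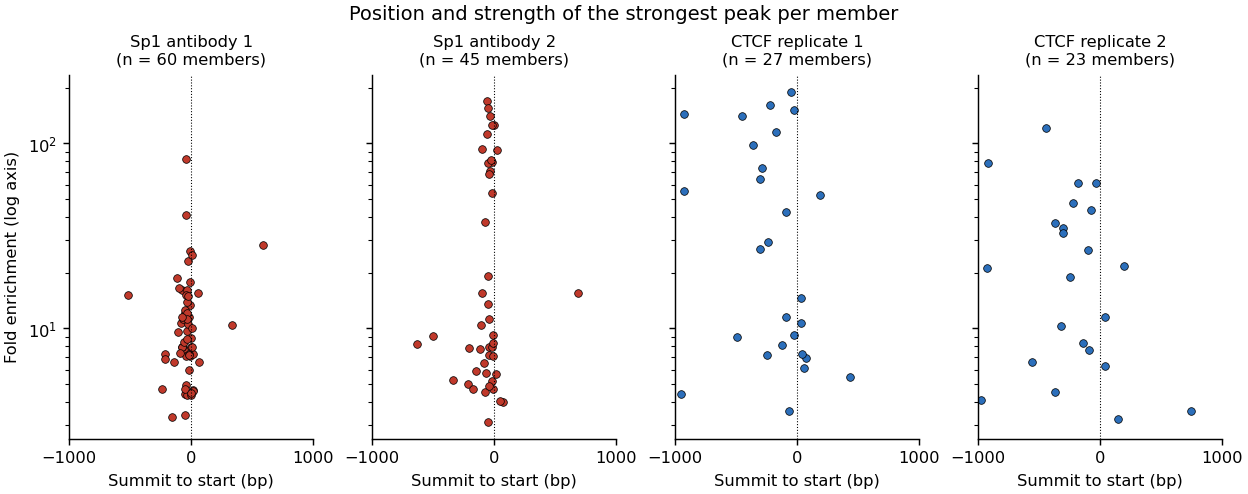
Distance of the strongest summit from the nearest start (horizontal axis, bp, negative upstream) against its fold enrichment (vertical, log axis), 1 point per member, for 60 members with Sp1 antibody 1, 45 with antibody 2, 27 with CTCF replicate 1 and 23 with replicate 2. Sp1 points gather just upstream of 0, antibody 2 points leave a gap between 19.3 and 37.6, and CTCF points spread to 1 kb.

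The share of strong CTCF peaks was close to that of other genes. Its fold was at least 30 at 12 of the 27 members called in replicate 1 (44.4%) and 9 of 23 in replicate 2 (39.1%), against 44.5% and 38.4% of all genes called. MRPS12, whose bacterial counterpart takes part in decoding, had the highest mean log2 fold, with 141 and 122 in replicates 1 and 2. The next 5 by both replicates were MRPL39 (145 and 78.8), MRPS2 (152 and 61.0), MRPL38 (190 and 43.8), MRPL17 (161 and 48.0) and MRPS27 (116 and 60.8). The first 3 have these hg38 sequences at the replicate 1 summit.
MRPS12, chr19:38930439-38930539, + strand: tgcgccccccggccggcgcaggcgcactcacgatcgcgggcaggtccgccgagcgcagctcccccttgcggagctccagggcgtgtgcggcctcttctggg
MRPL39, chr21:25608390-25608490, - strand: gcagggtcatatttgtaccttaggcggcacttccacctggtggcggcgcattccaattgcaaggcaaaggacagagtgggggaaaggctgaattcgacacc
MRPS2, chr9:135500575-135500604, + strand: tcccagccgcctggggacagcgctgtggct

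None of these 3 windows holds the degenerate CTCF consensus that was searched, and that of MRPS2 was shortened to 30 bases. The consensus is rarely met in full. Within 50 bp of the replicate 1 summit it was at 2 of 27 members (7.41%), against 8.70% of all genes with such a summit. Its absence here therefore does not show that a CTCF site is missing. The MRPS12 summit lay at -455 bp, in a coding exon of SARS2, the mitochondrial seryl-tRNA synthetase gene, which has a start 181 bp away on the opposite strand. The MRPL39 summit lay at -923 bp, apart from its Sp1 summits at the start, although the replicate 1 peak itself also covers those summits. Replicate 2 had a second, weaker summit near the start, at -71 bp with a fold of 30.0. The MRPS27 summit lay in an intron near an internal start, at position 72308601 of chromosome 5, while its Sp1 summits lay near the main start at 72320240.

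Both CTCF replicates without Sp1 were found at 4 members (5.13%), against 11.8% of all genes. They were MRPS2, MRPL42 (52.7 and 21.7), MRPL41 (26.9 and 10.3) and MRPL23 (9.26 and 4.54). The strongest MRPL23 summits lay 1865 bp apart, but replicate 1 had a second summit (8.39) beside that of replicate 2, at -408 bp and -366 bp of the same start. Replicate 1 alone marked 6 members (7.69%, against 8.23% of all genes) with folds from 3.59 to 7.23. Replicate 2 alone marked 2 members (2.56%, against 0.661%), MRPL46 (4.11) and MRPS35 (3.25). Replicate 2 was the weaker at 20 of the 21 shared members, with a median log2 ratio of -0.98, against -0.95 over all shared genes.

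Neighbouring genes share some of these peaks. An opposite-strand protein-coding start lay within 1 kb upstream of the main start in 29 of 78 members (37.2%, 27.3 to 48.3), against 12.7% of all genes. Antibody 1 marked 25 of these 29 (86.2%) and 35 of the other 49 (71.4%), and antibody 2 marked 17 (58.6%) and 28 (57.1%). Over all genes antibody 1 marked 71.1% of head-to-head genes and 32.6% of the rest, so that 71.4% of members without a partner stood beside 32.6%. For antibody 2 the shares over all genes were 52.6% of head-to-head genes and 20.0% of the rest. Its share of head-to-head members, 58.6%, was thus nearer to that of all such genes. In 14 of 60 members the antibody 1 summit was nearer to a start of another protein-coding gene, and this held for 8 of 45 with antibody 2. The share over all called genes was not computed, so these counts do not set the family apart. MRPL46 and MRPS11 form a head-to-head pair within the family and share 1 antibody 1 peak with a fold of 4.71, so the 60 members rest on 59 distinct peaks. The strongest MRPL11 summit of antibody 1 (9.72) lay 23 bp from a start of PELI3, while a weaker one (7.98) lay at -59 bp of the main start of MRPL11.

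The other genes of mitochondrial translation were taken from fixed lists, whose counts are small and stand beside backgrounds of 37.5% for antibody 1, 24.2% for antibody 2, 24.3% for both CTCF replicates and 7.11% for antibody 2 over 4 times antibody 1. Of 5 further ribosome subunits without MRP symbols, antibody 1 marked 3, antibody 2 marked 2 and both CTCF replicates marked 2. AURKAIP1, a small subunit protein, had 41.4 with antibody 2 and 6.14 with antibody 1. Of 22 ribosome assembly genes, antibody 1 marked 14 (63.6%, 43.0 to 80.3), antibody 2 marked 13 (59.1%, 38.7 to 76.7) and both CTCF replicates marked 7 (31.8%, 16.4 to 52.7). In 0 of the 11 with both antibodies was antibody 2 over 4 times antibody 1 (0 to 25.9%). That count leaves out the assembly gene MTERF4, which had 82.9 with antibody 2 and no antibody 1 summit. Of 17 translation factor genes, each antibody marked 10 (58.8%, 36.0 to 78.4), and antibody 2 was over 4 times antibody 1 in 4 of the 8 with both (50.0%, 21.5 to 78.5).

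Those 4 were the translational activator TACO1 (109 and 6.56), the initiation factor MTIF2 (80.2 and 6.80), the recycling factor GFM2 (71.3 and 4.75) and the release factor MTRF1 (51.5 and 5.64), with antibody 2 given first. Of 5 genes of mitochondrial DNA transcription, antibody 1 marked 2 and antibody 2 marked 3, among them the elongation factor TEFM at 90.7 with no antibody 1 summit. Of 10 regulators, antibody 1 marked 6, antibody 2 marked 5 and both CTCF replicates marked 5. GABPA, which encodes the DNA-binding subunit of GABP, had 22.6 with antibody 2 and 6.48 with antibody 1. ATP5PF, an oxidative phosphorylation gene, had the same folds with both antibodies, so these peaks cannot be given to GABPA alone.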

How the data were processed

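ChIP-seq peak lists from 5 of 8 libraries were used, and the 3 input libraries have none here. Before deposit, the authors ran Cutadapt for trimming, Bowtie2 for alignment (hg38), samtools to drop duplicates, and MACS on each library to call peaks. The study's methods name merged control replicates as the control, without saying which libraries. The deposited fold enrichment is a linear ratio, and the deposited −log10 p and −log10 q values of each summit served in alternatives only. All 92832 peaks on chromosomes 1 to 22 and X lay within hg38.

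Starts came from GENCODE release 44. Words were searched on both strands, and overlapping matches counted once. Python 3.11.15 and SciPy 1.17.1 were used, and the assignment was tested on simulated peaks. Members, gene lists and the limits of 4 times and 30 were chosen with earlier results of these data known. Named genes were the highest 6 per target, the 3 extremes of the antibody ratio on each side, the members at the 1 kb limit, and every member in all 4 lists, in none or with antibody 2 alone. Others, among them MRPL57 and MRPL42, were named after their values were seen. Replicates are as labelled and may be technical. Alternatives changed distance, starts, threshold, list size, background and words. The bases at 1 summit are not reported here.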

Additional observations from a re-analysis of the deposited data

How the results depend on the processing

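Sp1 shares exceeded the background under every alternative run, by 26.4 to 42.8 percentage points for antibody 1, 25.6 to 34.6 for antibody 2 and 24.0 to 32.3 for both. The antibody 1 difference fell from 39.5 to 26.4 points with CpG-rich genes as background, an alternative chosen after seeing the data. All members, CpG-rich or not, were set against that background, so the sets are unlike in CpG content. With that background the CTCF differences reversed, to -5.69 (replicate 1), -1.06 (replicate 2) and -2.80 points (both), while canonical starts alone raised them to 11.99, 9.44 and 7.499 points. With all lists cut to 5973 peaks, CTCF marked 6, 5 and 5 members (7.69%, 6.41% and 6.41%, against 5.69%, 5.41% and 5.07% of all genes). Antibody 1 then marked 48 members (61.5%, all genes 28.7%) and both Sp1 antibodies marked 35 (44.9%, all genes 18.5%). A longer GC box was in 20 members (25.6%, all genes 24.5%), and on the strand of the gene only the GC box was in 29 (37.2%, 42.8%) and the ETS core in 26 (33.3%, 12.8%). With 1 kb either side of the main start the GC box was in 69 members (88.5%, all genes 81.8%). The sign of its difference from all genes thus depended on the word and window. Leaving out a CTCF replicate gave 23 to 27 members and a difference of 2.14 to 4.57 points. With −log10 p the Sp1 rho was 0.0199. In all, 3 alternative values were classed as reversed, 7 as moved in size and 109 as the same. The count of members with antibody 2 over 4 times antibody 1, also varied after seeing the data, was 12 to 14. No paired analysis was possible because the replicate numbers are shared only by CTCF and its inputs, and the inputs have no peak list here. Depth is unknown, so a missing peak does not show absence.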
